A study of Mus musculus with 8 samples.

Results

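The SLAM family receptors that B cells carry were described here by 5 genes, Slamf1, Slamf6, Ly9, Cd84 and Cd48. They were chosen by name, as the members of the family known from B cells, with earlier results of these data known. All 5 were among the 24259 gene symbols of the deposited count table and among the 12744 genes with enough counts to be tested. RNA was measured by SMART-Seq2, a full-length method for small cell numbers, in 8 libraries of about 200 B cells each. The cells bound the hapten NP, were IgD-low and B220+, and were sorted as B cells not yet in the germinal center (GC) from draining lymph nodes of mice at day 3 of the response to NP-OVA (NP joined to ovalbumin) given with LPS in alum.

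Both groups used CD45.1 Sap-/- recipients on the C57BL/6 background, which lack the adaptor SAP, and both were given OT-II T cells, whose antigen receptor recognises ovalbumin. Donor T cells of the 4 HET libraries were CD4-Cre Bcl6 fl/+, with 1 floxed allele of Bcl6, and those of the 4 WT libraries were CD4-Cre only. CD4-Cre acts in T cells. The sequenced B cells were the recipients' own, so they lacked SAP in both groups and did not carry the floxed allele, and no deleted gene can check the group labels here. The study asked whether T cells with less BCL6 give B cells less help, and the helped B cells are compared here for their SLAM receptors.

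SLAM receptors are small immunoglobulin-like surface proteins, and most of them bind the same receptor on the opposing cell, so that a B cell and a T cell can each carry both partners. CD48 differs in that it is anchored to the membrane by a lipid and binds CD244 and CD2. The tails of the other receptors bind the adaptor SAP (Sh2d1a), which brings in the kinase FYN, or the related EAT-2 (Sh2d1b1), which does not use FYN, and in the absence of SAP the tails can bind phosphatases. The SLAM receptors and SAP are best known in this setting for the lasting contact of helper T cells with B cells that GC formation needs.

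Total counts ranged from 6652386 to 12559189 per library, and 3 counts corresponded to 0.241 to 0.455 CPM (counts per 1000000, after TMM scaling). Every member was far above this floor, with 261 counts in its weakest library (Slamf1) and 3258 in its strongest (Cd48). Per the study's methods, cells from the recipients of a group were pooled and the 4 libraries were sorted from that pool. P-values therefore measure only the spread between libraries of 1 pool, which may be technical, and a difference between groups cannot be told apart from one between the pools. The B cell markers were present in every library, with 10 of 10 tested and a summed level of 27900 to 37348 CPM in HET and 32138 to 35268 CPM in WT.

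None of the 5 members passed an adjusted p of 0.05 between HET and WT in edgeR's quasi-likelihood test, a call made for 0.0235% of all tested genes (3 of 12744). Slamf6 was the member with the lowest p. It was the only member with an unadjusted p under 0.05 in edgeR, on the lower side in HET, where 3.88% of all tested genes fell, and the only member whose groups did not overlap, again lower in HET, as for 2.62% of all tested genes. The point estimates of all 5 were below 0, with a median log2 fold change of -0.19 against -0.001 over all tested genes, of which 50.1% were below 0, but Ly9 and Cd48 lay above 0 once levels were taken relative to B cell markers (given with those markers). In DESeq2 too, 0 of the 5 passed (0.581% of 15149 genes with an adjusted p passed), and again 1 of the 5, Slamf6, had an unadjusted p under 0.05. In bulk samples such as these, fewer cells of a type and less RNA per cell cannot be told apart.

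**Figure D1:**
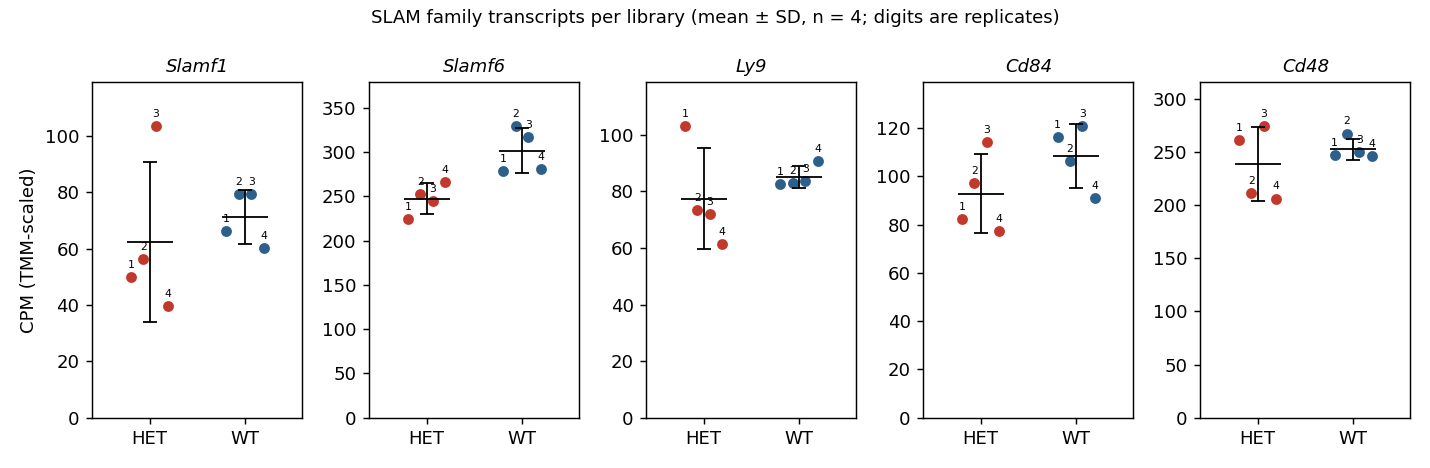
CPM of each member in each library (HET and WT, n = 4 each), with points for libraries, the long line for the mean and bars for the SD. The Slamf6 points of HET (224 to 267 CPM) all lie below those of WT (279 to 329 CPM), while the groups of the other 4 members overlap.

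Slamf6 encodes Ly108, a receptor that binds itself on the opposing cell. It lies on chromosome 1 from 171917515 to 171953170 (+ strand, ENSMUSG00000015314.10, GRCm38). Its level was 224, 253, 245 and 267 CPM in HET replicates 1 to 4 and 279, 329, 318 and 281 CPM in WT replicates 1 to 4. Every HET library was thus lower than every WT library, with the highest HET library, replicate 4, close to the lowest WT libraries, replicates 1 and 4. The means were 247 ± 17.6 CPM (SD, n = 4) and 302 ± 25.6 CPM (SD, n = 4), a HET level of 0.819 times that of WT (95% interval 0.708 to 0.947). On the log2 scale this was a fold change of -0.29 (SE 0.10, edgeR unadjusted p = 0.0107, adjusted p = 0.569). With each of the 8 libraries left out in turn it stayed between -0.33 and -0.24, with an unadjusted p of 0.00881 to 0.0385 and an adjusted p of 0.497 to 0.800 in edgeR.

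Slamf1 encodes CD150, the receptor that gave the family its name and that also binds itself. It lies on chromosome 1 from 171767127 to 171801184 (+ strand, ENSMUSG00000015316.11). It was the most variable member. Its level was 50.1, 56.5, 103.5 and 39.6 CPM in HET replicates 1 to 4 and 66.1, 79.4, 79.4 and 60.1 CPM in WT replicates 1 to 4. One HET library, replicate 3, was above every WT library, and the other HET libraries were below every WT library. The coefficient of variation was 45.3% in HET and 13.6% in WT. The means were 62.4 ± 28.3 CPM (SD, n = 4) and 71.3 ± 9.72 CPM (SD, n = 4), and the log2 fold change of -0.19 (SE 0.25, 95% interval -0.72 to 0.34) had an adjusted p of 0.909 in edgeR. Without HET replicate 3 the log2 fold change was -0.55 (edgeR unadjusted p = 0.0118, adjusted p = 0.666), and without HET replicate 4 it was -0.02, and each of the 8 libraries left out in turn gave an edgeR adjusted p of 0.666 to 0.992.

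Cd84 encodes CD84, another receptor that binds itself. It lies on chromosome 1 from 171839697 to 171890718 (+ strand, ENSMUSG00000038147.13). Its level was 82.4, 97.0, 114.0 and 77.5 CPM in HET replicates 1 to 4 and 116.1, 106.3, 120.8 and 90.8 CPM in WT replicates 1 to 4. HET replicates 1 and 4 lay below every WT library, and HET replicates 2 and 3 lay among the WT libraries. The means were 92.7 ± 16.4 CPM (SD, n = 4) and 108 ± 13.3 CPM (SD, n = 4). The log2 fold change of -0.23 (SE 0.15, 95% interval -0.55 to 0.09) had an adjusted p of 0.795 in edgeR. It was -0.34 without HET replicate 3 and -0.15 without HET replicate 4, and the edgeR adjusted p lay between 0.759 and 0.960 whichever library was left out.

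Ly9 encodes CD229, a receptor with a longer extracellular part that also binds itself. It lies on chromosome 1 from 171588624 to 171607410 (- strand, ENSMUSG00000004707.14), inside the span of Cd244a on the other strand, with which it shares 0 exon bases. The strand setting of the counting was not given in the sources used here. Its level was 103.1, 73.3, 71.9 and 61.6 CPM in HET replicates 1 to 4 and 82.7, 83.1, 83.7 and 90.9 CPM in WT replicates 1 to 4. HET replicate 1 was above every WT library and the other HET libraries were below every WT library. The means were 77.5 ± 17.9 CPM (SD, n = 4) and 85.1 ± 3.90 CPM (SD, n = 4), and the log2 fold change of -0.13 (SE 0.16, 95% interval -0.47 to 0.21) had an adjusted p of 0.905 in edgeR. Without HET replicate 1 it was -0.30 (edgeR unadjusted p = 0.0571, adjusted p = 0.620), and without HET replicate 4 it was -0.03. The edgeR adjusted p lay between 0.620 and 0.982 whichever library was left out.

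Cd48 encodes CD48, the lipid-anchored ligand of CD244 and CD2. It lies on chromosome 1 from 171682009 to 171705258 (+ strand, ENSMUSG00000015355.13). Its level was 262, 212, 275 and 206 CPM in HET replicates 1 to 4 and 248, 268, 250 and 246 CPM in WT replicates 1 to 4. The HET libraries lay on both sides of the WT libraries, with a coefficient of variation of 14.5% against 3.95%. The means were 239 ± 34.7 CPM (SD, n = 4) and 253 ± 9.98 CPM (SD, n = 4), and the log2 fold change of -0.08 (SE 0.11, 95% interval -0.32 to 0.15) had an adjusted p of 0.915 in edgeR. It was -0.15 without HET replicate 3 and -0.02 without HET replicate 4, and the edgeR adjusted p lay between 0.847 and 0.989 whichever library was left out.

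Added together, the 5 members came to 722, 691, 809 and 652 CPM in HET replicates 1 to 4 and to 792, 866, 851.5 and 769 CPM in WT replicates 1 to 4. HET replicate 3, which was the highest HET library for Slamf1, Cd84 and Cd48, lay among the WT libraries. HET replicate 4 was the lowest HET library for Slamf1, Ly9, Cd84 and Cd48 and the highest for Slamf6. No HET library was therefore the lowest or the highest for every member.

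The promoter windows of Slamf6 and Cd84, the members with the lowest p, are shown as the 250 bases before the RefSeq start on GRCm38.p6, chr1:171917212-171917461 and chr1:171839447-171839696, both on the + strand. RefSeq's table held 4 of the 5 members, and Ly9 was named only. Capitals mark a match to the AP-1 motif TGANTCA.
Slamf6: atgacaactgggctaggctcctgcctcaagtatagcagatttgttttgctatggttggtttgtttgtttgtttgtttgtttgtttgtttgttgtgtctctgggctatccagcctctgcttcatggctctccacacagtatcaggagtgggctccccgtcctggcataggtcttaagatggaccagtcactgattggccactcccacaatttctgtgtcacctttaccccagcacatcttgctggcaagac
Cd84: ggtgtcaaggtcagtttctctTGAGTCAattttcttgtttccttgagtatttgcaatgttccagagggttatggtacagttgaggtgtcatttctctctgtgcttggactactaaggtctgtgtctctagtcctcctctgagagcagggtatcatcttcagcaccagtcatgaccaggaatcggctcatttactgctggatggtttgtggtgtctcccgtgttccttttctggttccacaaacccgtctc
Besides TGANTCA, an ETS motif (AGGAAG, or CTTCCT on the other strand) and an E-box (CACCTG, or CAGGTG) were searched on both strands. A further motif, the octamer, was searched at first, matched none of the members' windows and was dropped. The motifs were chosen with earlier results of these data known. The Cd84 window held TGANTCA beginning 229 bases before the start, a motif in 6.75% of 32851 windows of the same length. The Slamf6 and Cd48 windows held none of the motifs. The Slamf1 window held CACCTG, present in 17.2% of all windows, and AGGAAG, present in 29.5%. A match is a description of letters in this window and not of a bound site.

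The 5 members lie within 364.547 kb of chromosome 1, with 2 other protein-coding genes between them (Slamf7 and Gm10521). Around them, up to 200 kb on each side and the genes in between, 11 other protein-coding genes were tested. In HET, 5 had a log2 fold change below 0 and 6 above 0, with a median of 0.02. Of the 11, 0 were called by edgeR, where 0.0235% of all tested genes were, and 1 had an unadjusted p under 0.05, where 7.22% did. That gene was Dcaf8, a subunit of a ubiquitin ligase, named after its values were seen. It was at 70.8 ± 2.55 CPM in HET and 105 ± 10.6 CPM in WT (SD, n = 4 each), a log2 fold change of -0.57 with an edgeR adjusted p of 0.220 and a DESeq2 adjusted p of 0.00321. DESeq2 called 0.581% of the genes with an adjusted p.

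**Figure D2:**
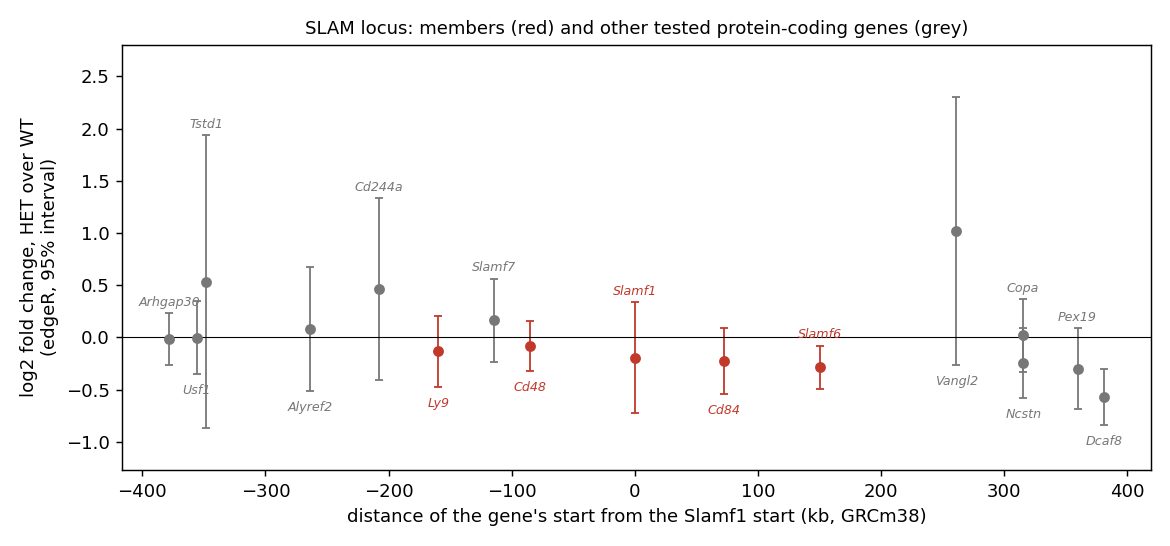
Log2 fold change (HET over WT, edgeR, bars for 95% intervals) of the members in red and of the other tested protein-coding genes in grey, against the distance in kb of each gene's start from the Slamf1 start. The members' point estimates lie between -0.29 and -0.08, and the interval of Slamf6 is the only one among the members that does not cross 0.

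Next, other genes were examined by role, from a list of 36 genes in the table, of which 33 were tested. The list holds SLAM and SAP genes and, besides them, 10 genes for other surface molecules that B cells use with helper T cells. In HET, 14 had a log2 fold change above 0 and 19 below 0, with a median of -0.10 and a range of -0.37 to 0.76. Of the 23 tested SLAM and SAP genes alone, 8 were above 0 and 15 below 0, also with a median of -0.10. None of the 33 was called by edgeR (adjusted p 0.714 to 0.981), 0 had an unadjusted p under 0.05, where 7.22% of all tested genes did, and 0 had groups that did not overlap, where 4.61% of all tested genes did.

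Of the 4 other receptors tested, 2 had estimates above 0 and 2 below 0. Cd2, which binds CD48, was at 197 ± 33.9 CPM in HET and 217 ± 17.7 CPM in WT (SD, n = 4 each), a log2 fold change of -0.14 (SE 0.12, edgeR adjusted p = 0.855). Cd244a, the other partner of CD48, was far lower, at 12.6 ± 3.95 and 9.17 ± 4.53 CPM, a log2 fold change of 0.47 (SE 0.41, edgeR adjusted p = 0.859). Slamf7 (CRACC), a receptor common on plasma and NK cells, was at 89.4 ± 22.9 and 80.0 ± 14.1 CPM, a log2 fold change of 0.16 (SE 0.19, edgeR adjusted p = 0.896). Slamf9 ranged from 1.04 to 13.4 CPM in HET and from 1.73 to 15.4 CPM in WT (-0.30, SE 0.77, edgeR adjusted p = 0.962). Slamf8, known from myeloid cells, had 0 counts in 7 libraries and 89 counts (9.04 CPM) in WT replicate 2. The summed myeloid markers were also highest in that library, at 444 CPM against 39.1 to 138 CPM in the others. Lyz2 alone gave 399 CPM of that sum. The part of myeloid RNA in the Slamf8 value was not tested.

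Of the adaptors, Sh2d1a, which encodes SAP and is disrupted in the recipients, was low in both groups, at 2.57 to 5.09 CPM in HET and 3.03 to 6.27 CPM in WT (21 to 66 counts), a log2 fold change of -0.28 (SE 0.52, edgeR adjusted p = 0.946). Which cells these reads came from was not tested. Sh2d1b1 (EAT-2) had 0.599 to 2.98 CPM in HET and 0.939 to 2.27 CPM in WT, and Sh2d1b2 (ERT) had 1 count in 1 of 8 libraries. Both fell short of the count filter.

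Among 6 kinases, 3 had estimates above 0 and 3 below 0. Fyn, the kinase that SAP brings to the receptors, was at 27.2 ± 9.55 CPM in HET and 20.9 ± 8.61 CPM in WT (SD, n = 4 each), a log2 fold change of 0.38 (SE 0.35, edgeR adjusted p = 0.867). Prkcq (PKC-theta), which acts downstream of SAP in T cells, was at 11.7 ± 6.19 and 9.57 ± 6.22 CPM, a log2 fold change of 0.29 (SE 0.54, edgeR adjusted p = 0.946). Lck, also above 0 (0.20), is among the T cell markers given below. Which cells the reads of these 3 genes came from was not tested. Lyn, the main SRC kinase of B cells, had a log2 fold change of -0.11. The 4 phosphatases known to bind SLAM tails or to act in the same pathway all had estimates below 0 (median -0.13). Inpp5d, which encodes the lipid phosphatase SHIP-1, had the lowest p of the whole list, with 169 ± 18.4 CPM in HET and 199 ± 19.5 CPM in WT, a log2 fold change of -0.23 (SE 0.11, edgeR unadjusted p = 0.0646, adjusted p = 0.714). Ptpn6, which encodes SHP-1, was at 1147 ± 105 and 1209 ± 48.3 CPM.

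Of 8 genes downstream of the receptors or bound to them, 3 had estimates above 0 and 5 below 0. Of the 10 genes for other surface molecules, 6 had estimates above 0 and 4 below 0. The largest of these were Cd80, a costimulatory ligand at 4.998 ± 3.82 CPM in HET and 2.94 ± 2.02 CPM in WT (log2 fold change 0.76, SE 0.80, edgeR adjusted p = 0.889), and Pdcd1lg2 (PD-L2), at 16.9 ± 7.01 and 21.9 ± 2.203 CPM (-0.37, SE 0.31, edgeR adjusted p = 0.847). Icosl, the ligand of the T cell receptor ICOS, was at 45.1 ± 15.1 and 57.0 ± 14.9 CPM (-0.34, SE 0.25, edgeR adjusted p = 0.826).

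**Figure D3:**
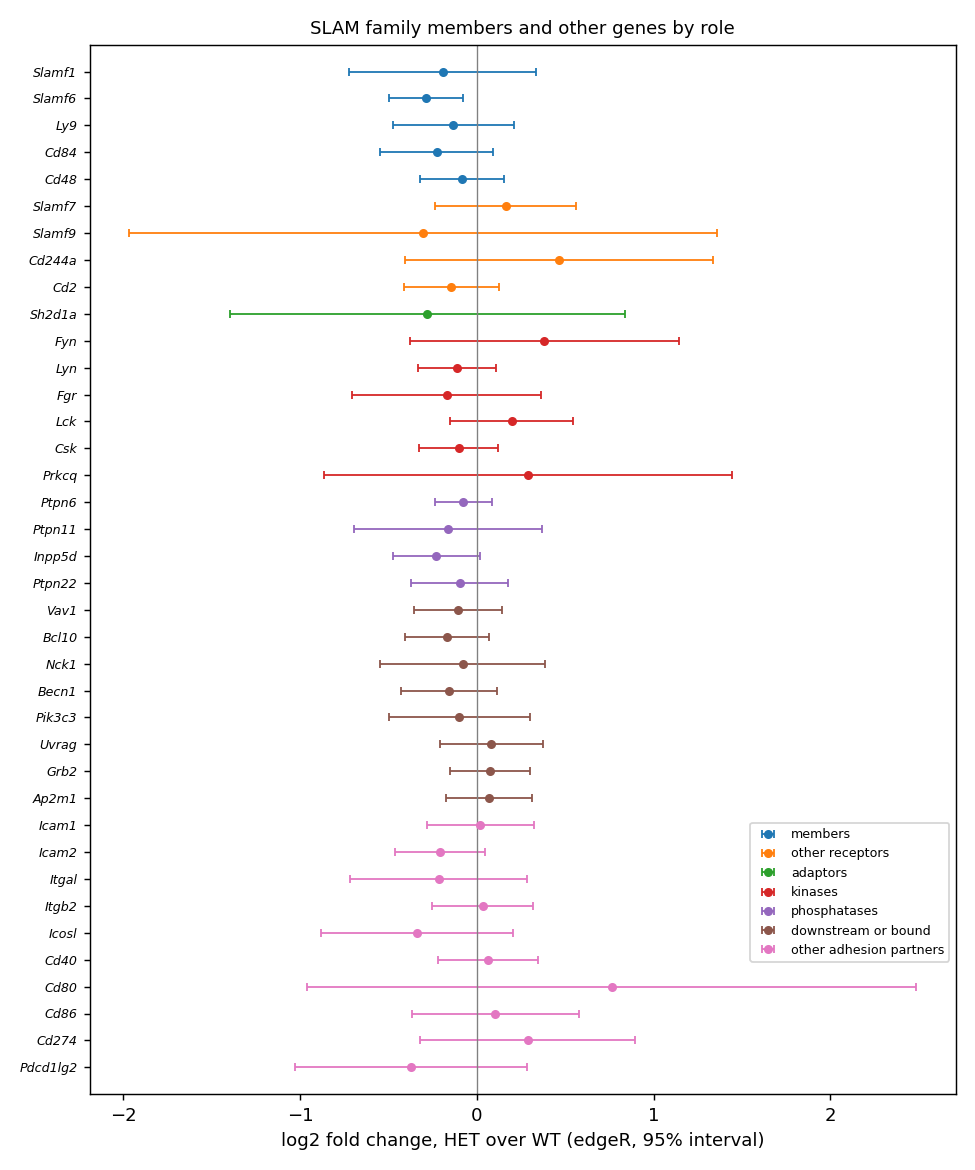
Log2 fold change (HET over WT, edgeR, bars for 95% intervals) of the 5 members and of the 33 other genes tested by role. Of the intervals shown, that of Slamf6 (-0.50 to -0.08) lies below 0 and the others cross it.

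The members were then ordered by level. Over all 8 libraries, the deposited TPM values gave Slamf6 the highest level, at 49.6 ± 7.71 TPM (SD, n = 8), followed by Cd48 at 31.9 ± 3.44, Ly9 at 15.5 ± 2.22, Cd84 at 7.89 ± 1.48 and Slamf1 at 6.46 ± 2.07 TPM. Each neighbour in this order differed on the log2(TPM + 1) scale in a two-sided exact sign-flip test over 8 libraries, the 4 comparisons being adjusted together. The order came from the same libraries, sorted from 1 pool per group. These p-values therefore describe only how alike the libraries were, and not the choice of gene length, which is the same in every library. Slamf6 was above Cd48 by 0.61 in 8 of 8 libraries (exact p = 0.00781, the smallest possible, adjusted p = 0.0104), and Cd84 was above Slamf1 by 0.28 in 7 of 8 (exact p = 0.0234, adjusted p = 0.0234). Cd48 was above Ly9 by 0.998 and Ly9 above Cd84 by 0.90, each in 8 of 8 libraries.

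The order depended on the length used. The ratio of count to TPM was fixed for each gene. Across 14592 protein-coding genes, which are not independent replicates, the length it implies followed the genomic span (r = 0.96). It followed the summed length of exons less closely (r = 0.58). Cd48 and Slamf6, as a pair, departed from this relation. The implied length of Cd48 was 1.39 times that of Slamf6, while its genomic span was 0.652 times that of Slamf6. Cd48 was thus the shorter gene by span as well as by exon length. The source of its longer implied length was not tested. With counts divided by exon length, Cd48, which has 1189 bases of exon, was highest at 207 ± 20.9 CPM per kb (SD, n = 8), and Slamf6, with 10832 bases, was at 25.3 ± 3.28. Ly9 followed at 24.6 ± 3.83, Cd84 at 16.0 ± 2.58 and Slamf1 at 10.9 ± 3.27 CPM per kb. On this scale Cd48 was above Slamf6 by 2.98 (log2) in 8 of 8 libraries, and Slamf6 and Ly9 did not differ beyond their spread, with a difference of 0.05 in 6 of 8 libraries (exact sign-flip p = 0.664). Ly9 stayed above Cd84 and Cd84 above Slamf1 on both scales, each in at least 7 of 8 libraries. The comparison of HET with WT for 1 gene does not depend on its length.

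**Figure D4:**
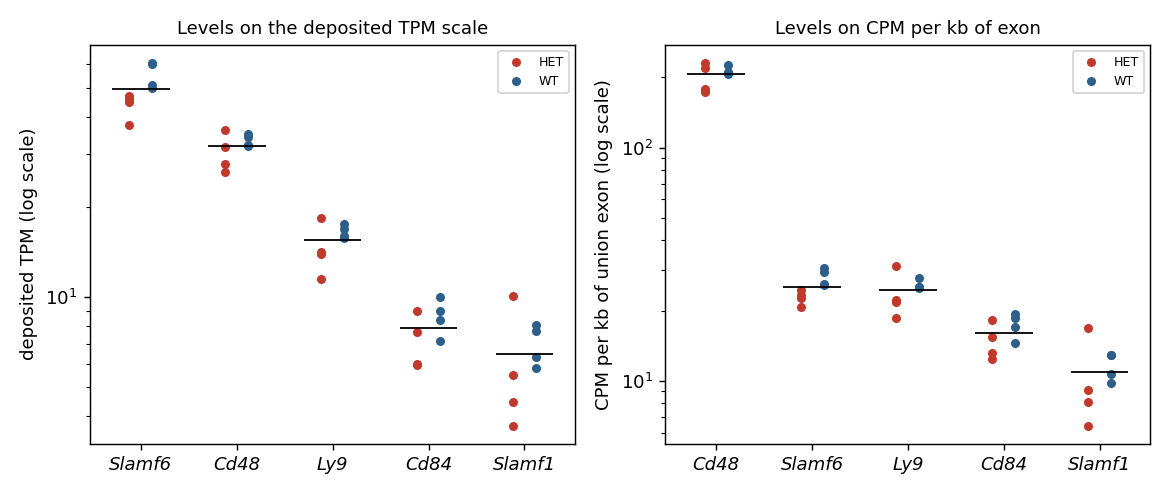
Level of each member in each library, as deposited TPM (left) and as CPM per kb of exon (right), both on log axes, with a line for the mean over 8 libraries. Slamf6 is the highest member at left (49.6 TPM) and Cd48 at right (207 CPM per kb).

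The members did not all vary together across the 8 libraries. Of 10 pairs, Slamf1 and Cd84 had the highest correlation over all 8 libraries, with Pearson's r = 0.865 (exact permutation p = 0.00575, adjusted p = 0.0575 over 10 pairs) and Spearman's rho = 0.786 (exact permutation p = 0.0279, adjusted p = 0.184). It was r = 0.842 without the 2 libraries farthest from the median of Slamf1 and 0.857 after centring within groups. Slamf1 and Cd48 had r = 0.738 (exact permutation p = 0.0368, adjusted p = 0.184) and rho = 0.762 (exact permutation p = 0.0368, adjusted p = 0.184), and r was 0.330 without the 2 farthest libraries, on which this relation rests. Slamf1 and Slamf6 went the other way, from r = 0.329 (exact permutation p = 0.429, adjusted p = 0.714, rho = 0.381) to 0.973 without the 2 farthest libraries, above Slamf1 and Cd84, so the order of the pairs depends on those libraries. Of the 10 pairs, 0 passed 0.05 after adjustment.

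Among 4940 genes of at least 5 log2 CPM on average, the 3 genes whose pattern over the 8 libraries was most like each member are given as a description, since the values share libraries and depth. They were picked as the highest of that many correlations over only 8 libraries, so a high r is partly due to the picking, and none was tested. Slamf1 was most like Tmub2 (r = 0.978), 4930523C07Rik (0.970) and Ppp1r16b (0.935). Slamf6 was most like Gba2 (0.963), Prkd2 (0.946) and Lat2 (0.938). Ly9 was most like Ripk1 (0.982), Laptm4a (0.967) and Mxd4 (0.945). Cd84 was most like Dram2 (0.929), Hs3st1 (0.912) and Gsdmd (0.909). Cd48 was most like Crk (0.911), Sdc4 (0.893) and H2-D1 (0.891).

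Most B cell markers had estimates on the same side as the members. Of the 10, 9 had estimates below 0 in HET (median -0.21), 7 had an unadjusted p under 0.05 on that side, as did 3.88% of all tested genes, and 4 had groups that did not overlap, namely Cd79b, Ms4a1, Cd22 and Cd74, where 2.62% of all tested genes lay lower without overlap. None was called by edgeR, and 2 were called by DESeq2, Cd22 (adjusted p = 0.0174) and Cd74 (adjusted p = 0.0095), where DESeq2 called 0.581% of the genes with an adjusted p. Ighm alone had an estimate above 0 (0.28), which rested on HET replicate 1, at 15362 CPM with the rest of HET at 6145 to 7366 CPM, and was -0.13 without that library (edgeR adjusted p = 0.691). The summed CPM of all 10 did not pass (exact permutation p = 0.2, adjusted p = 0.286). The mean log2 CPM of the 9 markers other than Ighm was 10.25 ± 0.03 in HET and 10.48 ± 0.08 in WT (SD, n = 4 each), a difference of -0.22 (exact permutation p = 0.0286, which is the lowest that 4 libraries against 4 allow). With Ighm included, the difference was -0.19 (exact permutation p = 0.0286). The 9 were chosen, and Ighm left out, after the data were examined. Taking levels relative to the mean of the 9 subtracts the same -0.22 from the difference of every member. Whether these markers measure B cell content alone was not tested. With each member's log2 CPM taken relative to the mean of the 9, the difference between HET and WT was -0.06 for Slamf6 (exact permutation p = 0.6, adjusted p = 0.971), and its groups overlapped. It was -0.05 for Slamf1, -0.01 for Cd84, 0.06 for Ly9 and 0.13 for Cd48 (exact permutation p from 0.229 to 0.971, adjusted p = 0.971 for each). Relative to all 10 markers, the groups of every member overlapped too, and the differences ran from -0.10 for Slamf6 to 0.092 for Cd48 (exact permutation p from 0.4 to 0.943, adjusted p = 0.943 for each).

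**Figure D5:**
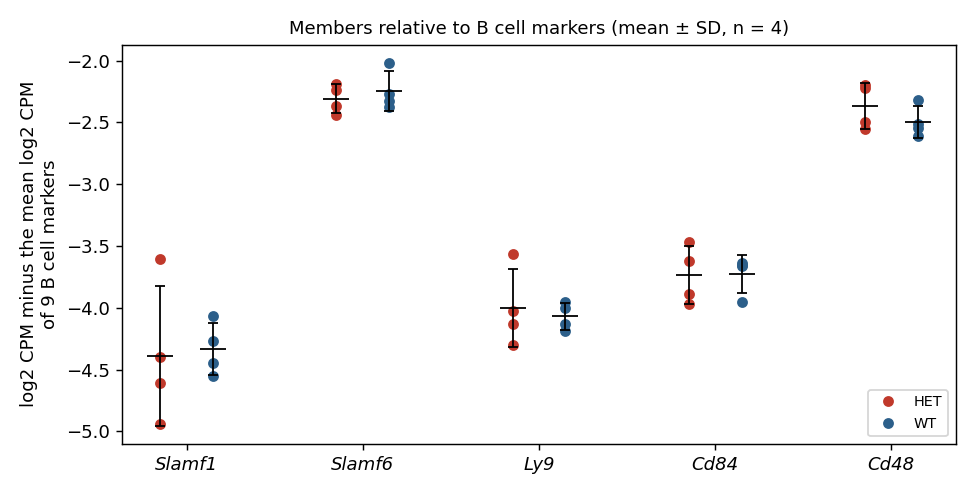
Log2 CPM of each member minus the mean log2 CPM of 9 B cell markers in the same library (points for libraries, bars for mean ± SD, n = 4 per group). The groups of every member overlap on this scale, Slamf6 included, and the difference between HET and WT runs from -0.06 to 0.13.

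Markers of other cells were measured beside the members. T cells also carry most of these receptors. Of 18 T cell markers, 17 were tested and all 17 had estimates above 0 in HET (median 0.48), with 0 called by edgeR (0.0235% of all tested genes) and 0 at an unadjusted p under 0.05 (7.22% of all tested genes). Their summed level was 427 to 800 CPM in HET and 257 to 644 CPM in WT (exact permutation p = 0.229, adjusted p = 0.286). Over the 8 libraries Cd4 was at 0 to 0.758 CPM, Cd8a at 7.19 to 57.1 CPM and Cd8b1 at 12.2 to 123 CPM. NK and cytotoxic markers (7 of 8 tested) also had 7 estimates above 0 and summed to 58.7 to 279 CPM in HET and 57.4 to 156 CPM in WT (exact permutation p = 0.171, adjusted p = 0.286). Myeloid markers (7 of 12 tested, 4 below and 3 above 0) had 0 called by edgeR. Of them, 2 had an edgeR unadjusted p under 0.05, Mpeg1 (log2 fold change 1.36) and Csf1r (-0.93), where 7.22% of all tested genes did. The myeloid markers summed to 39.1 to 138 and 45.6 to 444 CPM, and plasmablast markers (5 of 6 tested) to 223 to 1980 and 187 to 419 CPM. Lyz2 alone gave 399 CPM of the 444, and Jchain alone 1576 CPM of the 1980. The part of such other cells in the members' levels was not tested.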

How the data were processed

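Libraries were made by the authors with SMART-Seq2, without molecular identifiers, so precision given by depth covers counting error only. Per the study's methods and the labels, reads were aligned to GRCm38 (mm10) with HISAT2 2.2.1 and counted per gene with HTSeq. Annotation release, strand setting and treatment of multi-mapped reads: not given in the sources used here. The authors deposited raw counts (24259 symbols) and TPM (24232 symbols), the latter computed with 1 fixed length per gene.

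Counts were filtered by filterByExpr (12744 genes, 99.7% of counts), scaled by TMM and compared with edgeR 4.0.16 (quasi-likelihood F-test, robust, group as factor, R 4.3.3), with Benjamini-Hochberg adjustment over all tested genes and a threshold of 0.05. The SE was obtained as the log2 fold change over the root of F. Single values were compared by two-sided exact permutation over 70 arrangements. Alternatives were DESeq2 1.42.0, limma 3.58.1 (voom with quality weights, and trend on log2(TPM + 1) or log2(TPM + 0.1)), RLE size factors, other filters, a replicate block, immunoglobulin genes left out, and each library left out. Library pairs within a group differed by more than counting error (chi-square per degree of freedom 12.6 to 29.1), so none was the same library sequenced again. Without molecular identifiers, this cannot tell spread from amplification apart from spread between cells. Positions and exon lengths came from GENCODE M21. The members, and the lists of other genes examined by role and of markers, were chosen with earlier results of these data known. The genes named are the members, the genes of the list by role with the largest estimates in each direction (up to 4), CD48's partners, the SAP adaptors, and the 3 genes most like each member. Slamf7, Slamf8, Lyn, Lck, Inpp5d, Ptpn6, Dcaf8, Lyz2, Jchain, Cd8a and Cd8b1 were named after their values were seen.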

Additional observations from a re-analysis of the deposited data

Results flagged for a closer look

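In 48 groups of 4 libraries examined for 1 value far from the others, 5 were set apart. For normally distributed values, chance gives about 1 in 20. Counts near 0 and sums led by 1 gene need not follow that rate, so no excess over it is read from the 5. Among the members, the value set apart was Ly9 in WT replicate 4, at 90.9 CPM with the rest of WT at 82.7 to 83.7 CPM. Of the other genes examined by role, Sh2d1b1 was at 2.98 CPM in HET replicate 2 with the rest of HET at 0.599 to 0.965 CPM, and Slamf8 was at 9.04 CPM in WT replicate 2 and at 0 in the other WT libraries. Summed myeloid markers were at 444 CPM in WT replicate 2 with the rest of WT at 45.6 to 91.8 CPM. Lyz2 alone gave 399 CPM of that sum. Summed plasmablast markers were at 1980 CPM in HET replicate 1 with the rest of HET at 223 to 470 CPM. Jchain alone gave 1576 CPM of it. The shares of immunoglobulin counts were 4.46% in HET replicate 1 and 2.07% to 2.22% in the other HET libraries.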

How the results depend on the processing

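No member was called in any of the 18 other fits. Slamf6 had an unadjusted p under 0.05 in 18 of 20 alternatives, the exceptions being the scales relative to 9 and to 10 B cell markers, and its adjusted p ran from 0.247 (DESeq2) to 0.971. Slamf1 and Cd84 did so in 1 alternative each, without HET replicate 3, and Ly9 and Cd48 in 0. Estimates were below 0 for every member whichever library was left out. Relative to 9 B cell markers, the log2 difference of HET from WT was 0.064 for Ly9 and 0.13 for Cd48, and relative to all 10 it was 0.025 and 0.092, both alternatives added after the data were examined. Slamf6 minus Cd48 in level became -2.98 (log2) with exon lengths.

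Over all genes, 3 were called by edgeR, and 88 by DESeq2, 38 without the count filter, 7 with a mean of at least 50 counts, 6 by limma-voom and 0 by limma-trend in each of its 3 TPM settings. Leaving out a library gave 1 to 6 called genes, 1 without WT replicate 3 or any HET replicate and 6 without WT replicate 1. Same-numbered libraries deviated together no more than others (r = -0.0511, 0.0129, 0.00279 and -0.0262, against -0.0731 to 0.0735 for the other pairs). The numbers were not taken as pairs in the main fit. Whether libraries of the same number were processed together was not tested. With the replicate block, 0 genes were called by edgeR, and Slamf6 had a log2 fold change of -0.29 (unadjusted p = 0.0150, adjusted p = 0.675), Slamf1 -0.28, Cd84 -0.23, Ly9 -0.16 and Cd48 -0.09.

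The members had at least 261 counts in each library. The 4 libraries per group came from 1 pool, so the spread between mice was not measured.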
